A study of Homo sapiens with 2 samples.

Results

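The 8 genes described here encode proteins of the extracellular matrix, the receptors that hold cells to it and the proteases that cut it at the cell surface. They are the matrix genes COL6A2, COL4A2 and AGRN, the receptor genes ITGB4, ITGA5 and DDR2, and the protease genes MMP14 and PLAU. They are 8 of 831 gene names in a deposited table that compares 2 libraries. They were selected on their presence in that table, whose deposited p-values reach 0.04995 at most, and with their FPKM values and ratios already known. The values in both libraries are therefore given as a description, and no test was run on them.

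Both libraries were made from MiaPaCa, a long-established cell line from a human pancreatic carcinoma. The Scr control cells (Scr in the values below) were transfected with the plasmid pGFP-V-RS-Scr and carry the genotype label MYB-overexpression, although the protocols name no MYB expression plasmid. The MYB-silenced cells (shMyb) were transfected with pGFP-V-RS-shMYB, which expresses a short hairpin RNA against MYB, a transcription factor. Both populations were selected with puromycin at 2 µg/ml and kept as stable pools, so neither is a single clone. With 1 library in each group, no fold below has a replicate check or an error. In bulk RNA, fewer cells that express a gene and less RNA per cell cannot be told apart.

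MYB (chromosome 6, 135502453 to 135540311, hg19) stood at 981 FPKM in Scr and 0.554 FPKM in shMyb. FPKM is a fragment count scaled to transcript length and to the mapped total of the library, so levels of different genes can be compared within a library. All 8 genes had a mean above 1 FPKM, the level set for counting. The ratio of the libraries was taken as log2 of MYB-silenced over Scr control after 0.5 FPKM was added to each value, and a gene was called at an absolute log2 ratio of 1 or more, which is 2-fold on that scale. Folds are given as plain ratios of the FPKM values, with nothing added. The same rule was applied to the 797 loci of the table whose mean reached 1 FPKM. Of these, 159 were called higher (19.9%) and 197 were called lower (24.7%) in shMyb, a split that became 300 and 31 when the ratios were centred on their median. To check the labelled cell type, 10 epithelial and mesenchymal markers were looked up, but 0 of them are in the table and their levels were not analysed here.

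Matrix proteins outside the cell are built from collagens, laminins and proteoglycans. Integrins, which are dimers of an alpha and a beta subunit, bind these proteins and link them to the cytoskeleton, while the discoidin domain receptors are kinases that collagen itself activates. Membrane-bound metalloproteinases and the urokinase system cut matrix next to the cell and activate other proteases, and both are well known in the invasion of pancreatic cancer, a tumour with abundant matrix.

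RefSeq start sites on GRCh38.p14 were used for 6 of the 8 genes, in 9 windows of 250 bases before the start. No window of AGRN or ITGB4 was used here. The sequences of 4 genes are shown because these genes stand at the ends of the comparison: COL6A2 and MMP14 were called higher, DDR2 was called lower, and PLAU was the most abundant in the control. The windows are chr21:46097862-46098111 for COL6A2, chr14:22836335-22836584 for MMP14, chr1:162631725-162631974 for DDR2 and chr10:73910882-73911131 for PLAU, all on the plus strand. DDR2 has 3 start sites and PLAU has 2. Window 2 is shown for both, and the data do not tell which start was used. Each is printed 5′ to 3′ in lower case, and capitals mark matches to the MYB words or the TATA box described after them.
COL6A2: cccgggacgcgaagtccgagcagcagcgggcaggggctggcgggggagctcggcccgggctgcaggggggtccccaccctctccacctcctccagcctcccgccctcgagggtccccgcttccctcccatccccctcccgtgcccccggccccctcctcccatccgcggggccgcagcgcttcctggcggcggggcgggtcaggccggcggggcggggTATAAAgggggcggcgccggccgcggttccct
MMP14: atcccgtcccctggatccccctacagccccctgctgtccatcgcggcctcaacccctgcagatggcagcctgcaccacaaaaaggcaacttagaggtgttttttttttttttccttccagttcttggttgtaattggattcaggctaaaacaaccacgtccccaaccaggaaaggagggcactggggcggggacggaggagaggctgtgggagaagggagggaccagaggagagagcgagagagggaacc
DDR2: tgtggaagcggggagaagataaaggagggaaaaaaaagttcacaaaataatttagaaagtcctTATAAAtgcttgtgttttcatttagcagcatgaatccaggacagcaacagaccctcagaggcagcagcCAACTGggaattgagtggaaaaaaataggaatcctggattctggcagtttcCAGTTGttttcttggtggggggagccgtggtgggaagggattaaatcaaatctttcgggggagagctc
PLAU: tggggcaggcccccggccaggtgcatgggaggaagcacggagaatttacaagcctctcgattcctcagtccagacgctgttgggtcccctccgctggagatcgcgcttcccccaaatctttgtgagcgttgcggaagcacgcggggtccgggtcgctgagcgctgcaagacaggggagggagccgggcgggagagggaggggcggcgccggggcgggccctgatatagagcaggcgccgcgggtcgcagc

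The windows differed in base composition. COL6A2 was 79.6% G or C with 28 CpG dinucleotides, COL4A2 was 78.8% with 40, and ITGA5 was 70.0% with 12. PLAU was 68.8% with 24 CpG in the window shown and 46.8% with 4 in the other. MMP14 was 56.8% with 7. The 3 windows of DDR2 were the most A- and T-rich, at 40.0%, 44.4% and 42.4%, with 0, 3 and 2 CpG. The median over 901 windows of genes in the table was 64.4% with 20 CpG. The MYB site was searched as CAACTG or CAACGG or TAACTG or TAACGG on both strands, and these words occurred in 21.1% of all 35116 promoter windows of the same length. Among the 9 windows of these genes, 1 held them. It was window 2 of DDR2, with CAACTG at position -119 and CAGTTG, its reverse-strand form, at -68, counted from the last base before the start as -1. A TATAAA word, searched on the strand of the gene, was at position -32 in COL6A2 and at -187 in window 2 of DDR2, against 6.80% of all windows. GC boxes, GGGCGG on either strand, numbered 4 in COL6A2, 3 in the window of PLAU shown, and 1 each in COL4A2, ITGA5 and MMP14, against 42.6% of all windows with at least 1. The AP-1 word TGANTCA, which reads the same on both strands, was in 0 of the 9 windows and in 6.57% of all windows. A match is a description of letters in these windows and no measurement of binding.

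All 3 matrix genes were higher in the MYB-silenced library. COL6A2 (XLOC_015658, chromosome 21, 47518033 to 47552763, hg19) encodes the alpha2 chain of type VI collagen, which forms beaded filaments around cells. It was at 28.7 FPKM in Scr and 69.6 FPKM in shMyb. That is a 2.43-fold difference with a log2 ratio of 1.26. The authors' deposited table gives it a p-value of 0.0009. COL6A2 had the second largest ratio of the 8 genes and the largest among those above 1 FPKM in both libraries. Among the 836 loci ordered by FPKM, it was at rank 253 in Scr and rank 73 in shMyb.

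AGRN (XLOC_000014, chromosome 1, 955503 to 991499) encodes agrin, a heparan sulfate proteoglycan of basement membranes that binds laminin and dystroglycan. It was at 29.0 FPKM in Scr and 56.5 FPKM in shMyb. This 1.95-fold difference (log2 ratio 0.95) was just under the 2-fold rule. COL4A2 (XLOC_006552, chromosome 13, 110959514 to 111165373) encodes the alpha2 chain of type IV collagen, the sheet-forming collagen of basement membranes. It was the least abundant of the 3, at 5.08 FPKM in Scr and 8.76 FPKM in shMyb, a 1.73-fold difference and a log2 ratio of 0.73. Within the control library, COL6A2 and AGRN were at nearly the same level, with an AGRN to COL6A2 ratio of 1.01. That ratio was 0.811 in shMyb. The COL6A2 to COL4A2 ratio was 5.65 in the control and 7.95 in shMyb. The 3 genes summed to 62.7 FPKM in Scr and 135 FPKM in shMyb, 2.15-fold as much.

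**Figure D1:**
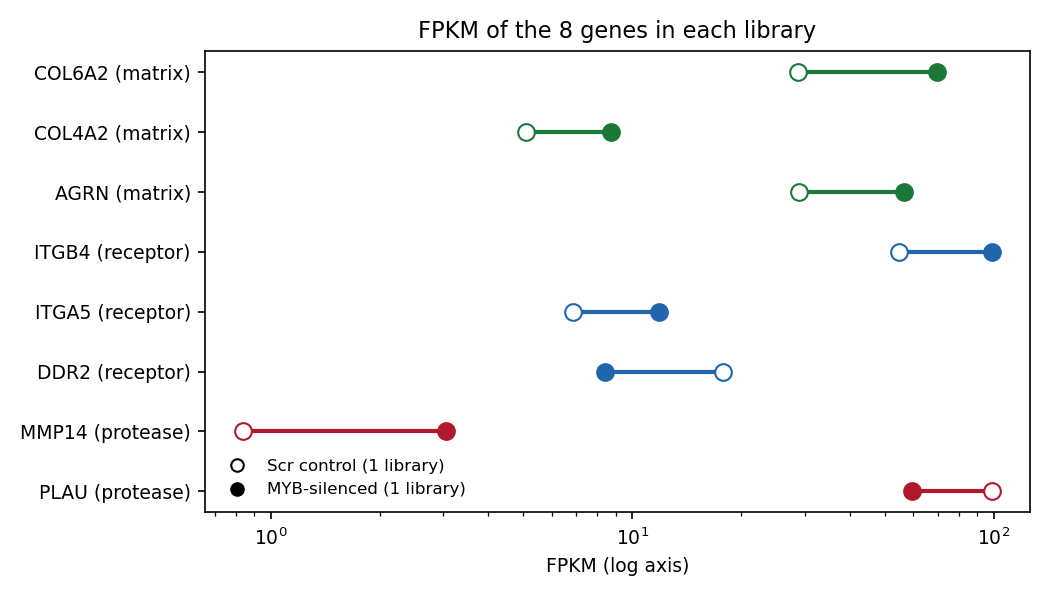
FPKM of each of the 8 genes (x axis, log scale) in the Scr control library (open circles) and the MYB-silenced library (filled circles), 1 library each, coloured by role. The filled circle lies to the right for 6 genes and to the left for DDR2 and PLAU, in uncentred values.

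The receptor genes were split, with both integrin subunits higher and the collagen receptor kinase lower. ITGB4 (XLOC_010164, chromosome 17, 73717516 to 73753899) encodes integrin beta4, which pairs with alpha6 to bind laminin in hemidesmosomes. It was at 54.6 FPKM in Scr and 98.9 FPKM in shMyb, a 1.81-fold difference and a log2 ratio of 0.85. It was the most abundant of the 8 genes in the MYB-silenced library and second to PLAU in the control. ITGA5 (XLOC_006008, chromosome 12, 54789045 to 54813050) encodes integrin alpha5, the subunit that pairs with beta1 as the main fibronectin receptor. It was at 6.87 FPKM in Scr and 11.9 FPKM in shMyb, a 1.73-fold difference and a log2 ratio of 0.75. The ITGB4 to ITGA5 level ratio was 7.95 in the control and 8.31 in shMyb. These subunits belong to different dimers, so this ratio is no subunit balance. Neither passed the 2-fold rule. With centred ratios both did (1.65 for ITGB4 and 1.55 for ITGA5), but so did all 300 higher loci of the table past the level filter.

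DDR2 (XLOC_000932, chromosome 1, 162602227 to 162756403) encodes discoidin domain receptor 2, a tyrosine kinase that fibrillar collagens activate. It is neither a matrix protein, an integrin nor a protease, and stands here as a matrix receptor. It was at 17.9 FPKM in Scr and 8.41 FPKM in shMyb, so the control level was 2.12-fold higher. The log2 ratio was -1.04, and the authors' deposited table gives a p-value of 0.00655. DDR2 was the only one of the 8 genes called lower, a call that ended at -0.24 with centred ratios. The COL6A2 to DDR2 level ratio was 1.60 in the control and 8.27 in shMyb, and the COL4A2 to DDR2 ratio was 0.284 and 1.04. Neither collagen is among the fibrillar collagens paired with DDR2 here. These ratios therefore compare levels only and match no ligand to its receptor.

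The 2 protease genes also differed in opposite directions, although PLAU stood at 0.065 once ratios were centred on the median locus. MMP14 (XLOC_006862, chromosome 14, 23305793 to 23316803) encodes the membrane-type metalloproteinase MT1-MMP, which cleaves collagen at the cell surface and activates the secreted proenzyme of MMP2. It was at 0.837 FPKM in Scr and 3.05 FPKM in shMyb. The 3.64-fold difference was the largest of the 8 genes, as was the log2 ratio of 1.41 with 0.5 FPKM added, with a p-value of 0.0025 in the authors' deposited table. It was also the least abundant of the 8 in both libraries, and with depth unknown the precision of a level under 1 FPKM cannot be given. PLAU (XLOC_002787, chromosome 10, 75669727 to 75682535) encodes urokinase, the secreted serine protease that turns plasminogen into plasmin. It was at 99.2 FPKM in Scr, the highest of the 8, and 59.3 FPKM in shMyb. The shMyb level was thus 59.8% of that in Scr (log2 ratio -0.74). The PLAU to MMP14 level ratio was 118 in the control and 19.5 in shMyb. PLAU was the more abundant of the pair in both libraries.

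Read against the table, 6 of the 8 genes were higher, where 37.6% of the 797 loci were. Called higher were 2 of 8, COL6A2 and MMP14, beside the 19.9% of all loci, and 1 of 8, DDR2, was called lower, beside 24.7%. With centred ratios 6 of 8 were called higher, beside 37.6% of all loci, and 0 of 8 lower, beside 3.89%. Every locus that was higher before centring was called higher after it, so the centred count only repeats the 6 higher genes. The genes were chosen with these ratios known, so nothing is read from these counts. A p-value of 0.01 or less in the authors' deposited table belonged to 3 of the 8, COL6A2, MMP14 and DDR2, and to 253 of the 836 loci (30.3%). The other 5 lay closer to the limit of the table, and the p-values of PLAU (0.04585) and ITGA5 (0.0444) in the authors' deposited table were nearest to it. By ratio, MMP14 was at rank 48 and COL6A2 at rank 64 of the 300 higher loci. COL4A2 was at rank 294 and ITGA5 at rank 288. DDR2 was at rank 172 and PLAU at rank 481 of the 497 lower loci. Centring the ratios on the median of the 797 loci, -0.80, leaves the 6 higher genes higher and DDR2 lower (-0.24) but puts PLAU at 0.065, although that median belongs to loci selected for change.

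**Figure D2:**
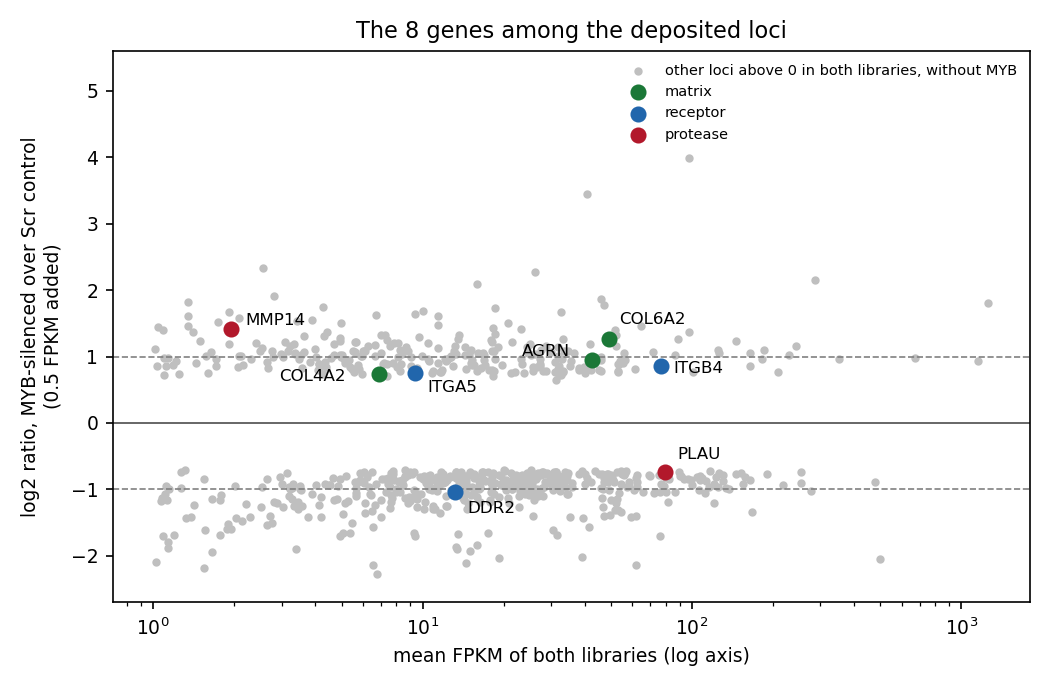
Log2 ratio of MYB-silenced over Scr control (y axis) against the mean FPKM of both libraries (x axis, log scale) for loci whose mean reached 1 FPKM and that were above 0 in both libraries, without MYB. Dashed lines mark the 2-fold rule, which COL6A2, MMP14 and DDR2 pass, and the empty band around 0 reflects that the table lists differing loci only.

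The receptors were then matched to their ligands and partner chains, in 34 pairs of 1 of the 8 genes with a known partner. Of the 32 partners, 1 is in the table, FURIN, and the levels of the other 31 were not analysed here. The pairs were written by hand and do not hold every possible partner. MRC2, a collagen receptor described below, is in the table but in none of the pairs. FURIN, the proprotein convertase that removes the inhibitory propeptide of MMP14, was at 10.4 FPKM in Scr and 18.6 FPKM in shMyb (log2 ratio 0.81), the same direction as MMP14. For integrin beta4, neither its partner chain ITGA6 nor the laminin genes are in the table. The same holds for ITGB1 and fibronectin FN1 as partners of ITGA5, for the fibrillar collagens as ligands of DDR2, and for COL6A1, COL6A3 and COL4A1 as partner chains of the 2 collagens. The agrin receptors DAG1, LRP4 and MUSK are not in the table, and neither is the urokinase receptor PLAUR. Stoichiometry within a collagen trimer, an integrin dimer or the urokinase system could therefore not be computed.

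A wider view came from 12 lists with 262 symbols of matrix, adhesion and protease genes, of which 21 loci are in the table. Of these 21 loci, 15 were higher and 6 lower in shMyb, or 3 lower once centred. Their median log2 ratio was 0.88, beside -0.80 for all 797 loci. Called higher were 8 of 21, beside 19.9% of all loci, and called lower 1 of 21, DDR2, beside 24.7%. With centred ratios all 15 were called higher, beside 37.6%, and 0 lower, beside 3.89%. The centred call took in every higher locus of the table, so it adds nothing to the 15. Without the 8 genes, 9 of the other 13 loci were higher, 6 of them called, and 4 were lower, 0 of them called, with a median of 0.89. The lists were written with earlier results of these libraries known, so these counts only describe the table.

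Among matrix genes, the 3 listed collagens were all higher. The third, COL18A1, encodes a basement membrane collagen from which the fragment endostatin is cut. It was at 37.4 FPKM in Scr and 69.4 FPKM in shMyb (log2 ratio 0.88). Of 32 interstitial matrix symbols, 2 are in the table. Both encode latent TGF-beta binding proteins, which tether the inactive growth factor to the matrix. LTBP1 was at 0.655 and 3.18 FPKM (log2 ratio 1.67) and LTBP4 at 4.49 and 10.7 FPKM (log2 ratio 1.16), and both were called higher. Of 22 symbols of collagen processing and crosslinking, 1 is in the table. P4HA1, a catalytic subunit of the prolyl hydroxylase that stabilises the collagen triple helix, was lower at 42.2 and 22.1 FPKM (log2 ratio -0.92), opposite to the collagens.

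Among the 23 symbols of other matrix receptors, 4 are in the table, 2 higher and 2 lower. MRC2, an endocytic receptor that takes up cleaved collagen, was at 22.0 FPKM in Scr and 47.1 FPKM in shMyb (log2 ratio 1.08). GPC1, a lipid-anchored heparan sulfate proteoglycan, was at 15.8 and 33.5 FPKM (log2 ratio 1.06). HMMR, which was named for hyaluronan binding and also acts on the mitotic spindle, was lower together with DDR2, at 79.0 and 44.5 FPKM (log2 ratio -0.82). The 2 collagen receptors of this list, MRC2 and DDR2, thus stood at 22.0 and 17.9 FPKM in the control. In shMyb they stood at 47.1 and 8.41 FPKM. Downstream of integrins, 2 of 23 adaptor symbols are in the table, and both were lower, before centring, while the integrin subunits were higher. BCAR1, the docking protein p130Cas, was at 36.4 and 21.4 FPKM (log2 ratio -0.76). PARVA, a parvin that joins integrin-linked kinase to actin, was at 9.94 and 5.62 FPKM (log2 ratio -0.77). After centring, their ratios have a median of 0.038, so their direction depends on the scale. The adaptor list does not hold every adaptor gene in the table. Outside it, SHC1 was higher (107 and 222 FPKM, log2 ratio 1.05) and LPXN was lower (17.3 and 7.05 FPKM, log2 ratio -1.24).

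Of the 23 metalloproteinases, MMP14 alone is in the table, and of the 13 symbols of plasminogen activation, PLAU alone. The other protease loci of these lists were higher. ADAMTS4, a secreted protease that cuts aggrecan, was at 0.651 FPKM in Scr and 2.81 FPKM in shMyb (log2 ratio 1.53). CTSL1, the gene of cathepsin L, was at 37.1 and 69.3 FPKM (log2 ratio 0.89). The kallikrein genes KLK10 and KLK9 share 1 locus in the table, with 2.03 FPKM in Scr and 4.68 FPKM in shMyb (log2 ratio 1.03). PLAU was thus the only lower locus among the 6 protease and protease activator loci of these lists before centring. The lists do not hold every protease in the table. Outside them, the cathepsin C gene CTSC was lower (29.0 and 15.8 FPKM, log2 ratio -0.85) and the protease gene PRSS16 was higher (2.17 and 4.91 FPKM, log2 ratio 1.02). DES, the intermediate filament gene of muscle and stellate cells, is the 1 of 31 cell type markers in the table. It was lower (1.97 and 0.0780 FPKM), with a mean of 1.02 FPKM, just past the level set for counting. Both libraries come from 1 cell line, and the source of the DES reads was not tested.

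**Figure D3:**
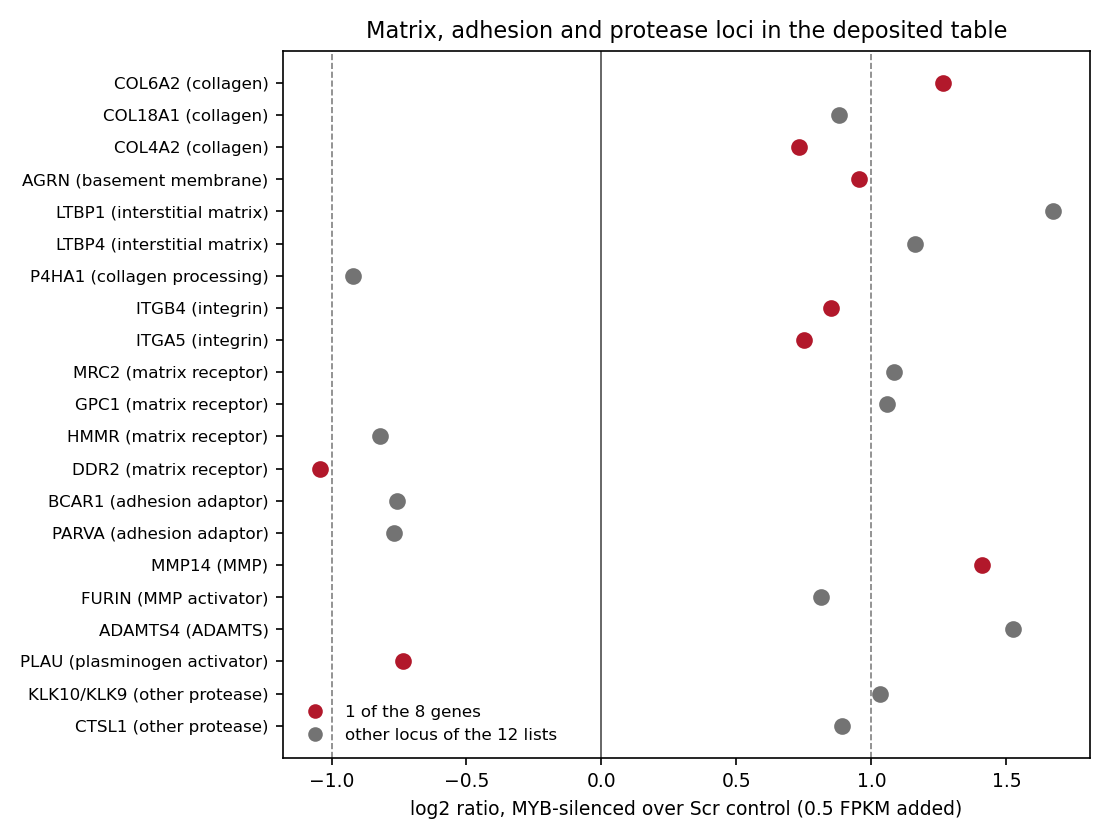
Log2 ratio of MYB-silenced over Scr control (x axis) for the 21 loci of the 12 lists that are in the deposited table, ordered by list, with the 8 genes in red and dashed lines at 2-fold. Of the 21, 15 lie to the right of 0, and P4HA1, HMMR, DDR2, BCAR1, PARVA and PLAU lie to the left, of which BCAR1, PARVA and PLAU would cross 0 after centring.

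Direction in this table moved with the GC content of transcripts, and so did these genes. The transcript GC content was 66.0% for AGRN, 65.1% for COL6A2 and 62.9% for ITGB4, all in the highest of 5 equal bins, where 89.2% of 157 loci were higher. It was 59.3% for MMP14, 57.3% for COL4A2, 56.0% for ITGA5 and 54.0% for PLAU, in the fourth bin, where 51.0% were higher and 49.0% lower. The lowest was that of DDR2, at 50.1%, in the third bin, where 71.2% of 156 loci were lower. The 2 lower genes thus had the lowest GC content of the 8, as in the whole table, where the median was 44.5% for lower and 60.6% for higher loci. Of the list loci beside the 8 genes, P4HA1 (40.2%) and HMMR (38.0%) were lower and AT-rich, whereas BCAR1 was lower at 66.0% and LTBP1 higher at 47.9%. Whether GC content has a part in the ratios was not tested.

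**Figure D4:**
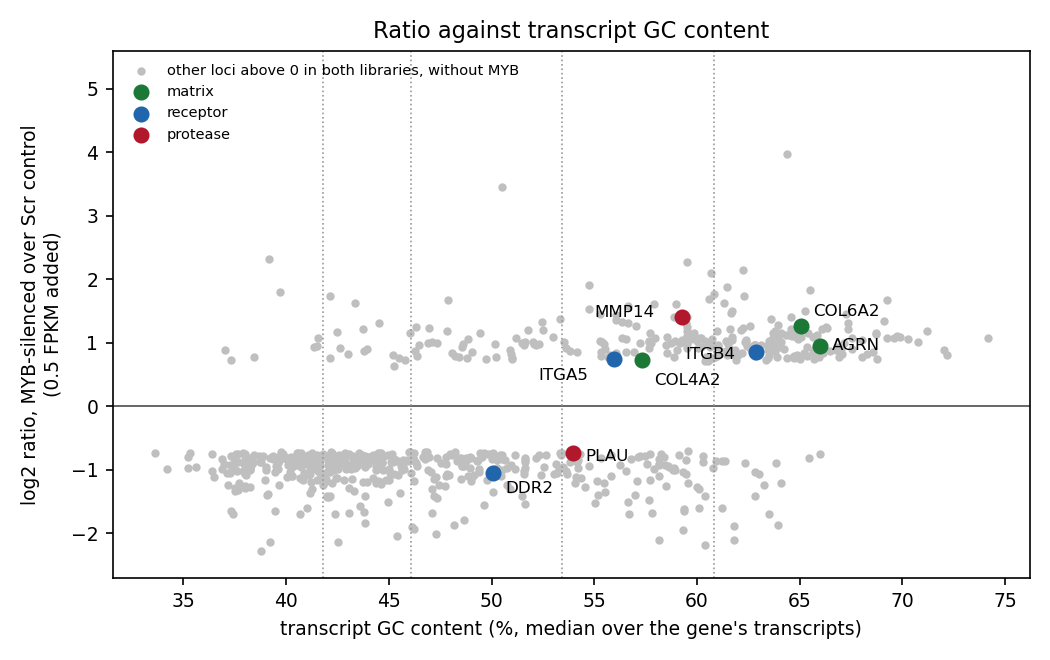
Log2 ratio of MYB-silenced over Scr control (y axis) against transcript GC content in percent (x axis) for the same loci, those whose mean reached 1 FPKM and that were above 0 in both libraries, without MYB, with dotted lines at the bin edges. The 6 higher genes lie at 56.0% or more, PLAU at 54.0% and DDR2 at 50.1%.

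Overlapping genes limit some of these values, since no source used here states whether the counting used strand. In GENCODE release 29, exons on the other strand overlap 3 of the 8 genes: COL4A2-AS1 and COL4A2-AS2 for COL4A2, AC079313.1 for ITGA5 and C10orf55 for PLAU. Without strand, reads of these pairs cannot be told apart. On the same strand, AL645608.5 overlaps AGRN. COL6A2, ITGB4, DDR2 and MMP14 had no such overlap.

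For each of the 8 genes, the locus with the most similar pair of levels was found among 722 other single-gene protein-coding loci, by the distance of log2 levels over the 2 libraries. The nearest to DDR2 was MYBL1, a relative of MYB, at 17.2 FPKM in Scr and 8.31 FPKM in shMyb (distance 0.056). The nearest to COL6A2 was the serine synthesis enzyme gene PHGDH (29.5 and 74.8 FPKM, distance 0.11), and to AGRN the lysophospholipid acyltransferase gene LPCAT3 (30.0 and 59.4 FPKM, distance 0.088). The nearest to ITGB4 was the biliverdin reductase gene BLVRB (54.3 and 101 FPKM, distance 0.029), and to ITGA5 it was APLP1 (6.68 and 12.1 FPKM, distance 0.045). The nearest to COL4A2 was the oxidoreductase gene ERO1LB (4.87 and 9.45 FPKM, distance 0.12), and to MMP14 the transporter gene ABCC3 (0.789 and 3.37 FPKM, distance 0.13). The nearest to PLAU was the RNA-binding protein gene TARDBP (98.3 and 58.1 FPKM, distance 0.032). With 2 libraries, such likeness rests on 2 values per gene.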

How the data were processed

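RNA sequencing of 2 libraries, 1 of Scr control and 1 of MYB-silenced MiaPaCa cells, was analysed from 1 table deposited by the authors. Its FPKM values, signed fold score, log2 ratio without a pseudocount and unadjusted p-value are the authors' own. The tools TopHat, Bowtie, Cufflinks and CASAVA 1.8.2 and the build hg19 are listed per the submitters' processing notes. What each did, with which annotation, library scaling and strand setting, is not stated in those notes. The table holds 836 loci with deposited p-values of 0.04995 or less, so other genes were not analysed here. At the 801 loci without a 0, recomputed log2 ratios differed from the deposited ones by at most 0.001. No counts or library totals are given, so depth is unknown and no interval was computed.

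Ratios, levels and counts were computed in Python 3.11.15 with numpy 2.4.6 and pandas 2.3.3, with 0.5 FPKM added, and this understates the change of weakly expressed genes. The calculation and the motif search were run on simulated data with planted changes or planted words and no noise. That checks the code only and says nothing on the precision of the values. Without replicates no test was run. Locus coordinates follow the table (hg19), after 1 was added to each start. Promoter windows are RefSeq's on GRCh38.p14, and transcript GC content is the median over a gene's GENCODE release 29 transcripts, found for 822 of the 836 loci (98.3%). Members, gene lists and pairs were chosen with earlier results of these data known. The text names the 8 genes, MYB, up to 6 loci of each list, ranked by their ratio, and the nearest locus to each of the 8. It also names CTSC, PRSS16, SHC1, LPXN and the genes of the last section, which were picked after their values were seen. Alternatives were other pseudocounts, level filters, fold rules, centring and the deposited log2 ratio.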

Additional observations from a re-analysis of the deposited data

How the results depend on the processing

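The ratios of the 8 genes kept their direction and moved by less than 1.5 times with pseudocounts of 0.1 and 1 and with the log2 ratio in the authors' deposited table. Centring on the median of the 797 loci adds 0.80 to each by construction. It gave 2.07 for COL6A2, 1.53 for COL4A2, 1.75 for AGRN, 1.65 for ITGB4, 1.55 for ITGA5, -0.24 for DDR2 and 2.21 for MMP14, and turned PLAU from -0.74 to 0.065. Centring also left 3 of 6 lower list loci and raised the medians of the 21 loci and of the collagens to 1.68, of the integrins to 1.60, of the latent TGF-beta binding proteins to 2.22, of the other matrix receptors to 0.92, of the other proteases to 1.76 and of the adaptors to 0.038. The counts of 197 lower and 159 higher loci became 31 and 300 when centred, 497 and 300 at 1.5-fold, and 48 and 35 at 3-fold. The level filters changed no list median or count by more than 1.5 times. No paired analysis was possible because each group has 1 library, and no library could be left out. Depth is unknown, so the least certain of the 21 list loci are MMP14, LTBP1 and ADAMTS4, all under 1 FPKM in the control. Of the genes named in the next section, CHST11, FYN, SPON1 and THSD4 were also under 1 FPKM in the control, and ISPD was in shMyb.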

Other observations

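Genes outside the lists that act on matrix sugars or at adhesions were also in the table; the 13 named here were chosen after their values were seen. Of 6 genes of glycosaminoglycan synthesis and breakdown, 5 were higher in shMyb than in Scr, 1 of them, CHST11, below the level filter. Of the 797 loci past that filter, which leave out CHST11, 37.6% were higher. The chondroitin polymerising factor CHPF was at 21.3 FPKM in Scr and 45.4 FPKM in shMyb (log2 ratio 1.08). The chondroitin sulfotransferase CHST11 was at 0.398 and 1.15 FPKM, with a mean below 1 FPKM, the level set for counting. A second chondroitin sulfotransferase, CHST3, was lower at 6.70 and 3.66 FPKM (log2 ratio -0.79). Among these 6, the lysosomal enzymes that degrade heparan sulfate were higher, with IDUA at 1.79 and 4.63 FPKM, SGSH at 8.25 and 16.2 FPKM, and NAGLU at 6.46 and 13.5 FPKM. Lysosomal enzymes were not surveyed as a group, so nothing particular to matrix sugars is read from these values.

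At adhesions, the kinase FYN was at 0.879 FPKM in Scr and 2.39 FPKM in shMyb, and the small GTPase RRAS at 19.6 and 44.0 FPKM, while the caveolar protein CAV1 was lower (24.1 and 5.95 FPKM, log2 ratio -1.93). The tetraspanin CD9 was at 74.5 and 127 FPKM, the matrix protein gene SPON1 at 0.599 and 1.67 FPKM, and THSD4 at 0.804 and 1.68 FPKM. ISPD, an enzyme of the glycosylation that lets dystroglycan bind agrin and laminin, was lower at 1.16 and 0.354 FPKM. The mean of ISPD was below 1 FPKM, the level set for counting. AGRN was higher (29.0 and 56.5 FPKM).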
